A study of Drosophila melanogaster with 3 samples.

Results

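The Nimrod genes encode proteins built from a cysteine-rich repeat related to the EGF repeat, and the 10 genes described here are the members *NimA*, *NimB1* to *NimB5*, *NimC1*, *NimC2* and *NimC4* together with *drpr* (draper), which carries the same kind of repeat. They were chosen by name and found by their FlyBase identifiers among the 17768 genes listed for adult *Drosophila* nephrocytes. RNA was sequenced in 3 libraries of 1 condition, so no groups could be compared. All flies were control females aged 4 days that carried *Hand*-GFP together with *Klf15*-Gal4 and UAS-RFP over the CyO balancer, reared at 25 °C on standard food containing 6% sucrose. *Hand*-GFP marks the heart tube as well as nephrocytes, and *Klf15*-Gal4 drives RFP in nephrocytes. Large cells positive for both colors were sorted from 3 collections of 200 flies each, and the submitters give 100 to 200 nephrocytes without saying whether this is per library.

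Nimrod proteins fall into 3 types. NimA and the NimC proteins span the membrane, and several NimC proteins are phagocytic receptors of hemocytes, the blood cells of the fly. NimB proteins lack a membrane anchor and are secreted. Draper, the homolog of CED-1 of *Caenorhabditis elegans* and MEGF10 of mammals, is a receptor through which glia, hemocytes and other cells engulf dying cells and debris. Nephrocytes are not professional phagocytes. They filter hemolymph through slit diaphragms and take up proteins by endocytosis.

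Adult nephrocytes contained abundant RNA of 1 secreted member, *NimB2*, and little of the rest. Levels are given in TPM, the deposited unit of transcript abundance, which sums to 1000000 in each library and corrects for transcript length within a library. *NimB2* was present at 788 ± 79.2 TPM (mean ± SD, n = 3 libraries) and made up 95.1 ± 1.1% of the TPM of the 10 genes. The next member by mean, *NimC2*, was at 10.7 ± 4.0 TPM, and the fold between these means was 73.5. A level of 1 TPM or more in every library, called detected, was reached by 6 of the 10 members, against 40.5% of all listed genes. These were *NimB1*, *NimB2*, *NimB3*, *NimB5*, *NimC2* and *drpr*. The median of the mean TPM was 5.59 over the 10 members, 0.20 over all listed genes and 20.9 over the 7193 detected genes, so the typical member lay above the typical listed gene and below the typical detected gene. More than 3 expected counts in every library, the number that a count of 0 still allows, were found for 7 of the 10 members and 44.2% of all genes. The additional gene under this rule was *NimC1*.

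**Figure D1:**
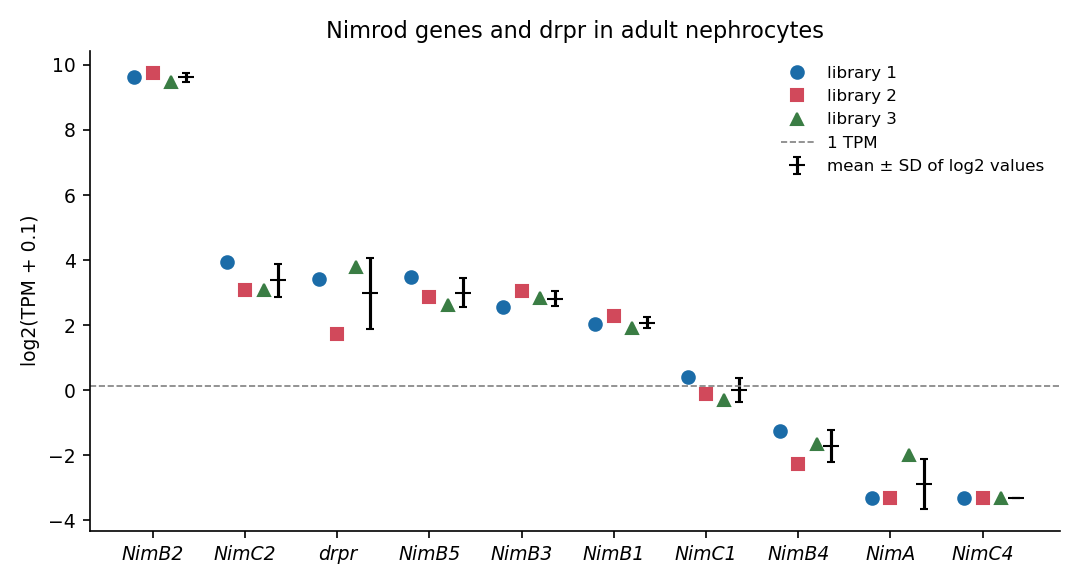
TPM of the 10 members in each library, as log2(TPM + 0.1), ordered by mean TPM, with the mean ± SD of the log2 values in black and a dashed line at 1 TPM. *NimB2* stands apart from all other members in all 3 libraries, and *drpr* has the widest spread of the detected members.

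Facts of the libraries that bear on these values are few. The libraries held between 7808930 and 8801238 expected counts, RSEM's estimates of reads per gene. They came from amplified cDNA, so limits set by counts cover counting error only. In library 2 long transcripts were lower. Against the mean of the other libraries, its TPM had a median log2 ratio of -0.92 in the longest eighth of detected genes and 0.11 in the shortest. The libraries differed from each other by more than sampling noise, since counts of each pair gave a chi-square of 33.0 to 80.3 per degree of freedom. Nephrocyte markers were detected in 7 of 7 cases, with *Hand* at 5190.5, 4619 and 4283 TPM in libraries 1, 2 and 3. They did not move together in library 2. Its log2 ratio to the mean of the others was -1.18 for *sns*, -0.73 for *kirre*, -0.71 for *pyd* and -0.04 for *Hand*. It was 0.39 for *Cubn*, 0.25 for *Amnionless* and 0.08 for *Klf15*. In bulk RNA, fewer cells of a type and less RNA per cell cannot be told apart.

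Among the secreted members, *NimB2* (FBgn0028543) had 790.1, 866 and 708 TPM in libraries 1, 2 and 3, supported by 7136, 7756 and 6349 expected counts. The libraries were close to each other, with the highest 1.22-fold above the lowest. By mean TPM the gene ranked 211th of all listed genes, within the top 1.19%, and it ranked 209th, 187th and 249th in the single libraries. Its coefficient of variation (CV, SD over mean) was 10.05%, where counting alone would give 1.19%. Of 291 detected genes with a mean TPM within 2-fold of it, 37.1% varied less between libraries on the log2(TPM + 0.1) scale. *NimB2* has 1 annotated transcript of 1435 bases in 3 exons. It lies on the minus strand of chromosome 2L from 13965012 to 13967018 in the BDGP6.54 annotation.

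*NimB1*, *NimB3* and *NimB5* were detected at levels about as low as each other. *NimB5*, which encodes a protein secreted by the fat body that restrains hemocyte numbers and adhesion, had 11.2, 7.24 and 6.09 TPM in libraries 1, 2 and 3, from 96, 60 and 50 counts. Library 1 was the highest, 1.83-fold above library 3. *NimB3*, the shortest member with a transcript of 466 bases, had 5.81, 8.17 and 7.09 TPM. These values rested on 10, 14 and 12 counts, and for this gene 3 counts correspond to 1.74, 1.75 and 1.77 TPM. *NimB1*, whose secreted protein dampens the uptake of apoptotic cells by macrophages, had 4.04, 4.72 and 3.70 TPM from 32, 37 and 29 counts. For *NimB3* and *NimB1* the spread between libraries, a CV of 16.8% and 12.5%, was smaller than the 28.9% and 17.5% that counting alone would give. Differences between libraries were therefore not detectable for them at this depth.

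The low value of *NimB1* lies beside a far more abundant neighbor. The last 77 bases of *NimB1*, from 13965012 to 13965088 on 2L, are also the last exonic bases of *NimB2* on the opposite strand, 5.97% of the exonic bases of *NimB1*. Reads from the overlap cannot be told apart without strand information, and the strand setting is not given in the sources used here. *NimC2* and *rk*, which lie on opposite strands, had fractional counts with whole sums. This is what counting without strand would give. All counts of *NimB1* and *NimB2* were whole numbers within 0.005, so no fractional split like that of *NimC2* and *rk* showed in them. Whether reads of *NimB2* are among the 32, 37 and 29 counts of *NimB1* was not tested. How many *NimB1* counts lay in the overlap cannot be read from gene totals. *NimB5* shares 78 exonic bases with *He* on the opposite strand in the same way, and the counts of both genes were whole.

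*NimB4* was the remaining secreted member. Its product binds apoptotic cells and promotes maturation of the phagosome in macrophages. It had 3, 1 and 2 counts in libraries 1, 2 and 3, or 0.32, 0.11 and 0.22 TPM. Reads of *NimB4* were thus found in every library, but none of the counts exceeded the 3 that a count of 0 allows. Its level was too low to measure at this depth.

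**Figure D2:**
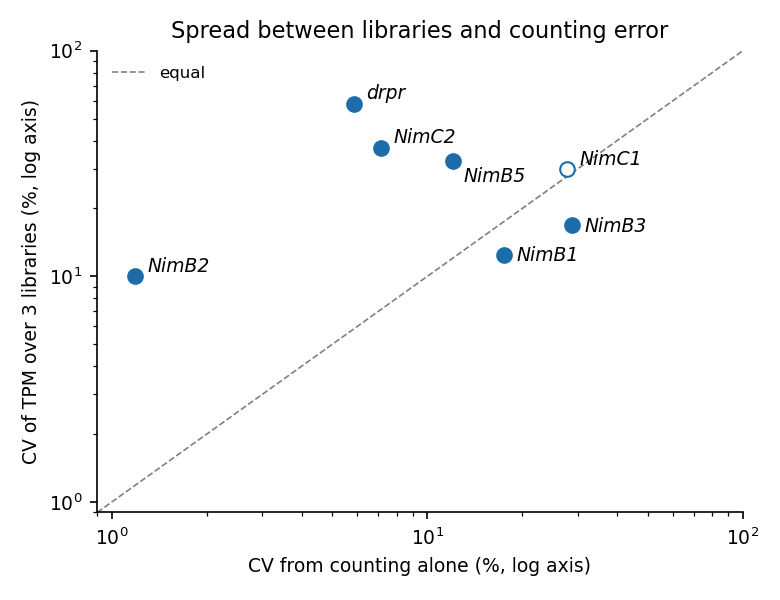
CV of TPM over 3 libraries against the CV that counting alone would give from the mean expected count, both in percent on log axes. Points are the 6 detected members (filled) and *NimC1* (open), and *NimB1* and *NimB3* lie below the dashed line of equality while *drpr*, *NimC2*, *NimB5* and *NimB2* lie well above it.

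Of the membrane-spanning Nimrod genes, only *NimC2* among the 3 NimC members and *NimA* was detected. *NimC2* (FBgn0028939) had 15.3, 8.4 and 8.42 TPM in libraries 1, 2 and 3, from 273.79, 159.94 and 156.85 expected counts. Library 1 was 1.82-fold above the lowest, while libraries 2 and 3 were nearly equal. The CV of 37.2% exceeded the 7.13% expected from counting, and 72.2% of 2460 detected genes of similar mean TPM varied less. *NimC1*, the plasmatocyte receptor for bacteria known as the P1 antigen, had 1.24, 0.82 and 0.72 TPM from 17, 11 and 11 counts. It was above the level of 3 counts in every library, yet reached 1 TPM only in library 1.

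*NimC4* and *NimA* were at or under the limit of counting. *NimC4*, also called *simu*, encodes a receptor for apoptotic cells in embryonic macrophages and glia. It had 0 counts in all 3 libraries, and 3 counts would correspond to 0.381, 0.384 and 0.384 TPM. *NimA* had 0, 0 and 3 counts, or 0, 0 and 0.15 TPM.

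*NimC2* was the only member whose counts were not whole. Of the 30 member values (10 genes in 3 libraries), 27 were whole within 0.005, and the other 3 were those of *NimC2*. Its last 527 exonic bases, 18.7% of the total, overlap exons of *rk*, a hormone receptor gene on the opposite strand, from 13982743 to 13983269 on 2L. The counts of *rk* were 9.21, 2.06 and 7.15, and the sums of both genes were 283, 162 and 164, whole numbers in every library. With all *rk* counts included, *NimC2* would thus gain at most 9.21 counts in any library. How many of the reads given to *NimC2* belong to *rk* cannot be read from gene totals.

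RSEM reports for each gene the mean length of its transcripts weighted by their estimated abundance, which bounds how much of the RNA was in long forms. All 24 member transcripts listed in the files were found in the annotation, and 99.8% of 10283 single-transcript genes had the same length in both. *NimC2* has transcripts of 2343, 2502 and 2819 bases, and its mean length was 2602, 2780.02 and 2715 bases in libraries 1, 2 and 3. The longest form then made up between 31.6% and 54.4% of *NimC2* RNA in library 1, between 87.7% and 91.8% in library 2 and between 67.1% and 78.1% in library 3. These ranges did not overlap, so the estimated mix of *NimC2* transcripts differed between libraries. They are bounds on RSEM's estimates, which come without an error.

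The engulfment receptor gene *drpr* (FBgn0027594) was expressed at a low level that varied widely. It had 10.6, 3.25 and 13.7 TPM in libraries 1, 2 and 3, from 339, 95 and 439 expected counts, a mean of 9.17 ± 5.35 TPM (SD, n = 3). Library 2 was the lowest, and library 3 was 4.2-fold above it. The CV of 58.3% was far above the 5.86% from counting, and 97.0% of 2332 detected genes of similar mean TPM varied less. Without replicate 2 the mean was 12.1 TPM. *drpr* lies on the minus strand of chromosome 3L from 1715595 to 1731107. It has 6 annotated transcripts of 3148 to 4757 bases.

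In library 2 *drpr* was low, as were long transcripts, and it lay below the median of detected genes of similar length. Library 2 was at a log2 ratio of -1.90 to the other libraries' mean for *drpr*. It was -0.78 at the median of 817 detected genes whose transcript length was within 20% of that of *drpr*, and -0.14 at the median of all detected genes. Of these detected genes of similar length 3.06% were lower. Long genes that fell below 1 TPM in library 2 are not among them, so this share may be too small. For *NimB1*, *NimB2* and *NimB5*, with transcripts of 1287 to 1435 bases, the ratio was 0.29, 0.21 and -0.25. It was 0.34 for *NimB3* and -0.50 for *NimC2*, where genes of similar length had medians of 0.12 and -0.29. Among the 6 detected members 2 were lowest in library 2 (*NimC2* and *drpr*, the longest of them) and 3 were highest there. Library 2 is a single library and the difference was not tested.

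**Figure D3:**
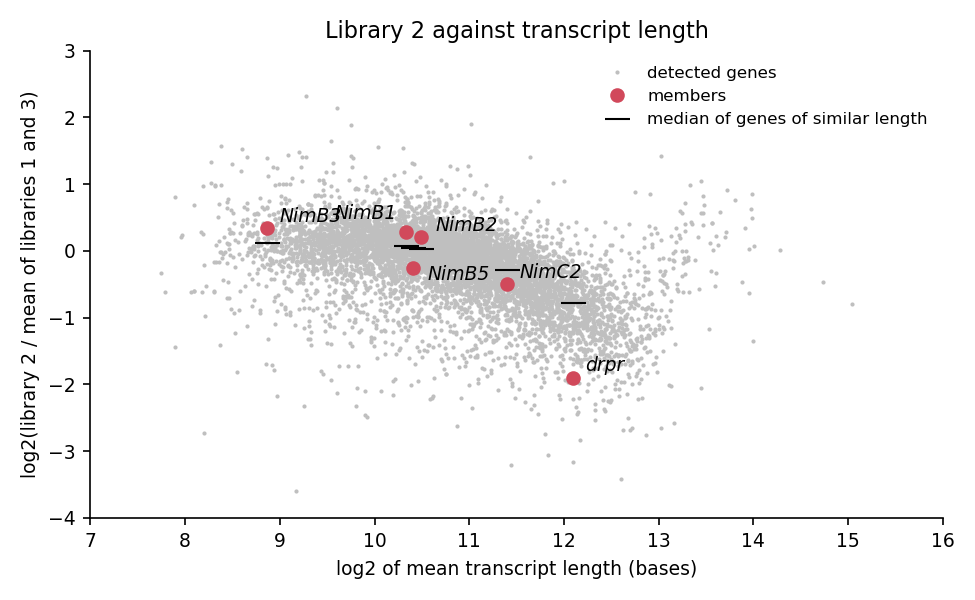
Log2 ratio of TPM in library 2 to the mean of libraries 1 and 3 against the log2 of mean transcript length in bases, for 7193 detected genes (grey) and the 6 detected members (red), with the median of genes of similar length as a black dash. The ratio falls with length up to about the length of *drpr*, and *drpr* at -1.90 lies below its dash at -0.78.

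The estimated mix of *drpr* transcripts also moved with library 2. The 3 long transcripts, of 4435 to 4757 bases, have coding sequences of 976 to 1042 codons, and the 3 short ones, of 3148 to 3298 bases, have 528 to 613. The mean length was 4463, 4140.1 and 4509 bases in libraries 1, 2 and 3. Long forms made up between 79.8% and 100% of *drpr* RNA in library 1 and between 83.0% and 100% in library 3, but between 57.7% and 77.1% in library 2. Most *drpr* RNA was thus estimated to encode the long protein in every library. The part of the loss of long transcripts in the lower share of library 2 was not tested.

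The order of the detected members by mean TPM was *NimB2*, *NimC2*, *drpr*, *NimB5*, *NimB3*, *NimB1*. Within libraries, the 5 pairs of neighbors were compared with a two-sided permutation test that flips signs exactly. Its smallest p is 0.25 with 3 libraries, so no pair could be called. The pairs were also set by the order in these same libraries, and the sizes and SDs are a description. *NimB2* exceeded *NimC2* in 3 of 3 libraries, 51.6-fold in the first, 103.1-fold in the second and 84.1-fold in the third (log2 ratio 6.26 ± 0.51, SD, n = 3; exact p = 0.25, adjusted p = 0.625 over 5 pairs). This was the one step many times larger than its spread. *NimB3* exceeded *NimB1* in 3 of 3 libraries as well, by 1.44-fold, 1.73-fold and 1.92-fold (log2 ratio 0.75 ± 0.21; exact p = 0.25, adjusted p = 0.625), on the small counts given above. The steps between *NimC2* and *drpr* (0.40 ± 1.04), *drpr* and *NimB5* (-0.02 ± 1.16) and *NimB5* and *NimB3* (0.18 ± 0.66) were smaller than their SD, with exact p from 0.75 to 1 (adjusted p = 1). The order of these 4 members was not settled by the 3 libraries.

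*NimB2* lies in a cluster of Nimrod genes, and its level was not shared by the genes around it. All 9 members apart from *drpr* lie between 13957539 and 14048863 on chromosome 2L, a stretch of 91.3 kb that holds 22 annotated genes, of which 10 are Nimrod genes (the members and *NimC3*) and 12 are others. *NimB2* is flanked by *NimB1*, with which it overlaps, and by *NimB3*, 445 bases away. Their mean levels of 4.15 and 7.02 TPM stand beside 788 TPM. Of the 12 other genes 2 were detected, against 40.5% of all listed genes. *Cyp28a5*, a cytochrome P450 gene between *NimC1* and *NimC2*, had 929.5, 617 and 547 TPM in libraries 1, 2 and 3, a level close to that of *NimB2*. *He* (Hemese), which encodes a surface protein of hemocytes, had 11.6, 4.31 and 4.03 TPM from 38, 14 and 13 counts. High and low genes thus alternated within a few kilobases, and the part of the cluster beyond *NimC2* held no detected gene. That part includes the tRNA gene and the noncoding RNA genes among the 12, which had no counts. There *bgm* came nearest, at 1.11, 0.90 and 1.61 TPM.

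**Figure D4:**
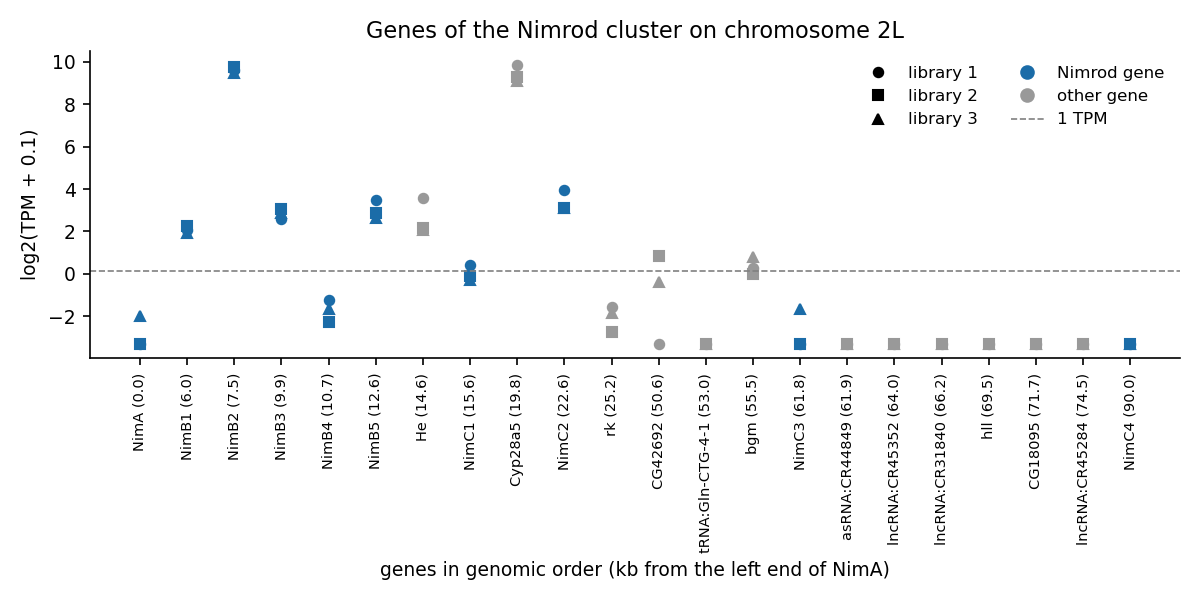
TPM in each library, as log2(TPM + 0.1), of the 22 annotated genes of the Nimrod cluster in genomic order, with the distance of each gene from the left end of *NimA* in kb. *NimB2* and *Cyp28a5* are the only genes above 100 TPM, and all genes to the right of *NimC2* fail to reach 1 TPM in every library.

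The low level of *drpr* contrasted with that of the genes that act with it. A total of 40 genes in 6 lists, chosen by known role in engulfment, was examined, and 32 of them were detected, against 40.5% of all listed genes. Their median mean TPM was 72.8. *prtp* and *CaBP1* encode proteins of the endoplasmic reticulum that serve as Draper ligands when exposed on dying cells. They were at 130 ± 19.7 and 333 ± 69.2 TPM (SD, n = 3). All 9 signalling genes downstream of Draper were detected. *ced-6*, which encodes the adaptor that binds the intracellular part of Draper, had 2345, 2349.95 and 2687 TPM in libraries 1, 2 and 3 and ranked 43rd of all genes. It exceeded *drpr* 221-fold, 723-fold and 197-fold in these libraries. *Shark*, the tyrosine kinase recruited by Draper, was at 13.7 ± 2.2 TPM, close to *drpr*, and *Src42A*, the kinase that phosphorylates Draper, at 77.3 ± 11.4 TPM. The genes for the Rac activators, *Ced-12* and *mbc*, were at 20.7 ± 0.76 and 3.73 ± 1.17 TPM, and *Rac1* was at 183 ± 24.9 TPM. *mbc* was thus the only one of the 9 with a mean below that of *drpr*.

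Of 11 other engulfment receptor genes 5 were detected, a share near the 40.5% of all listed genes. *crq* (croquemort), a CD36-like receptor for apoptotic cells, was at 352 ± 42.8 TPM. *NimB2* exceeded it in 3 of 3 libraries, with folds of 1.97, 2.65 and 2.17. *PGRP-LC* and *pes*, receptors for peptidoglycan and mycobacteria, were at 83.1 ± 7.7 and 68.4 ± 10.4 TPM. The integrin subunits *Itgbn* and *scb* were at 5.98 ± 2.64 and 4.06 ± 1.66 TPM. *eater*, a receptor for bacteria with the same repeats as the Nimrod proteins, and the scavenger receptors *Sr-CI*, *Sr-CII* and *Sr-CIII* had 0 counts in all 3 libraries. *NimC3* had 0, 0 and 1 counts.

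Among secreted thioester proteins, which can coat microbes, *Tep2* and *Tep4* were at 216 ± 31.0 and 216 ± 71.9 TPM, while *Tep1* had no counts and *Tep3* at most 2. *NimB2* exceeded *Tep2* by 3.12-fold to 4.79-fold and *Tep4* by 2.89-fold to 6.454-fold over the 3 libraries. All 8 genes of phagosome maturation were detected, from *lt* at 29.0 ± 2.9 TPM to *Lamp1* at 1334 ± 196 TPM, and they also serve endocytosis in general. Of 5 transcription factor genes known to regulate *drpr* in glia or hemocytes all were detected. *Stat92E* had 170, 137 and 174 TPM in libraries 1, 2 and 3, *kay* 168, 68.2 and 139 TPM and *srp* 150, 55.5 and 158 TPM. In library 2 *Stat92E* was at a log2 ratio of -0.33 to the mean of the others, above the median of -0.65 of detected genes of similar length. *kay* at -1.17 and *srp* at -1.47 were below the medians of -0.50 and -0.73 for their lengths. *EcR* and *Jra* were at -0.74 and -0.48 and were not set beside genes of similar length. The part of these factors in the level of *drpr* was not tested.

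**Figure D5:**
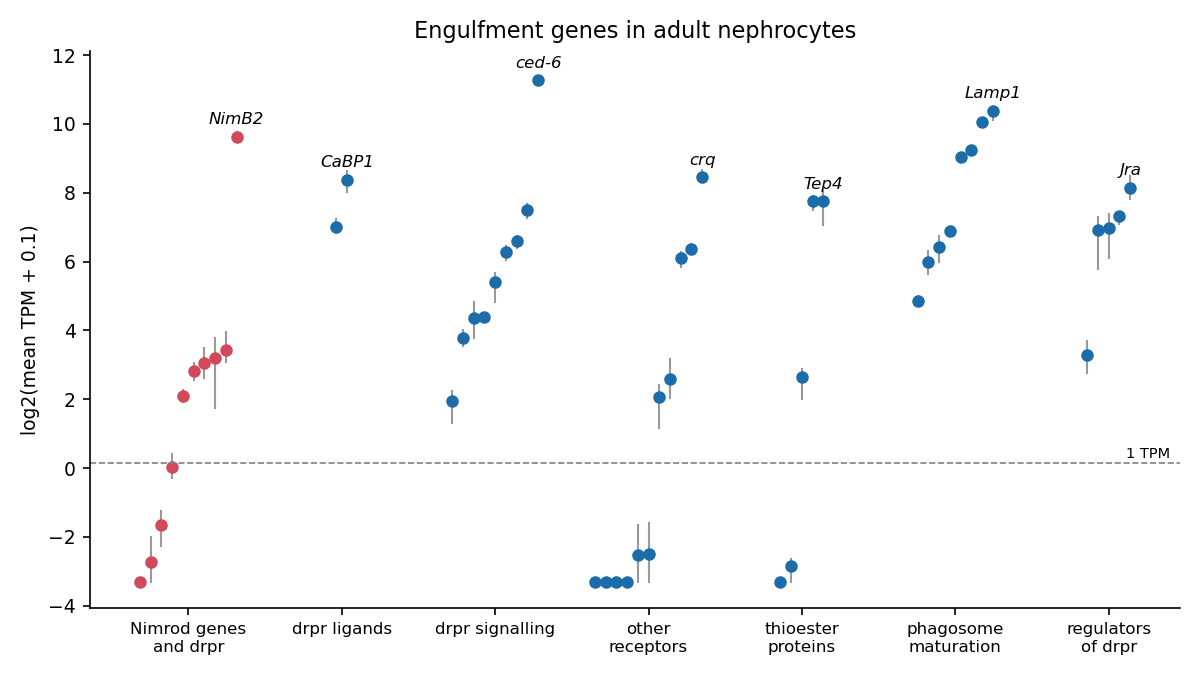
Mean TPM of the members (red) and of 40 engulfment genes (blue) in 6 lists by role, as log2(mean TPM + 0.1), with grey bars from the lowest to the highest library and the highest gene of each list named. *ced-6* is the highest of all, *NimB2* stands above the receptor, ligand and thioester genes, and the other members lie near or below the low end of the signalling genes.

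Since Nimrod genes are best known from hemocytes, markers of hemocytes and other cells are given beside them. Of 12 hemocyte markers 5 were detected, a share near the 40.5% of all listed genes, and the summed level of the list was 662, 434 and 604 TPM in libraries 1, 2 and 3. Nearly all of it came from *crq*, *srp* and *ush*. The markers not detected were *Hml*, *Pxn*, *eater*, *Sr-CI*, *PPO1*, *PPO2* and *lz*. They had at most 1 count in any library, 4 of them none in any. *He* and *atilla* were at 6.66 ± 4.32 and 3.58 ± 0.46 TPM. *NimC1*, *NimC2*, *NimB5* and the markers *He* and *crq* were highest in library 1, while the markers *srp*, *ush* and *atilla* were highest in library 3. The part of hemocytes in the levels of the members, *NimB2* included, was not tested. Fat body markers, given because *NimB5* is a product of that tissue, had 1 of 7 genes detected, with sums of 10.8, 14.6 and 304 TPM in libraries 1, 2 and 3. *Obp99b* alone gave 299 TPM of the last, and *NimB5* was lowest in that library. Whether fat body material contributed to the level of *NimB5* was not tested. Of 5 glial markers 3 were detected, with sums of the list of 149, 94.2 and 211 TPM in libraries 1, 2 and 3. These were *nrv2* at 91.4 ± 43.9, *moody* at 53.5 ± 13.4 and *Eaat1* at 5.54 ± 0.53 TPM. *alrm* was not detected, nor was *repo*, which defines glia and had at most 3 counts. All 6 muscle and heart markers were detected, with sums of 4449, 2313 and 7547 TPM. The sums of the glial list and of the muscle and heart list were both lowest in library 2 and highest in library 3, as was *drpr*. This order was not particular to these lists, since the hemocyte markers *srp*, *ush* and *atilla* had it too. The part of material from any of these cell types in the level of *drpr* was not tested.

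The genes most like the leading member of each type over the 3 libraries, by the distance of log2(TPM + 1), were named as a description. For *NimB2* these were *CG31313*, *Ent2* and *CG12012* at distances of 0.16, 0.17 and 0.19, with 40 genes within 0.5. For *NimC2* they were *CG6937*, FBgn0050456 and *CG42553* at 0.15, 0.17 and 0.20. For *drpr* they were *ZAP3*, *Sec16* and *CG13284* at 0.07, 0.14 and 0.16, with 11.1, 3.34 and 13.4 TPM in libraries 1, 2 and 3 for *ZAP3*. With 3 libraries such likeness rests largely on the level itself.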

How the data were processed

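Nephrocytes were sorted by flow cytometry, and cDNA was made and amplified with a low-input kit. Mapping by the authors was with STAR 2.7.5c and quantification with RSEM 1.3.3, on FlyBase annotation 6.28. How long the reads were, whether strand was used and how reads were filtered is not given in the sources used here. Expected counts, deposited without normalization, are estimated numbers of reads for each gene. The deposited TPM values were scaled by the authors to 1000000 per library, and the deposited FPKM values, scaled by effective length and mapped fragments, served as an alternative. Deposited transcript and effective lengths are in bases. Symbols came from a gene name table (17671 of 17768 IDs), and coordinates and transcripts from the BDGP6.54 annotation (Ensembl release 115), the same assembly release as the authors used.

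Levels are the mean and SD of TPM over 3 libraries. Nothing in the labels says whether the libraries are more than technical repeats, but the paper describes separate collections. The members, gene lists, marker lists and thresholds were chosen with earlier results of these data known. Named genes are the members, list and marker genes, detected genes of the cluster, and the 3 genes nearest in pattern to the leading member of each type. *bgm* and *rk* were named after their values were seen. Neighbors in the order of members were compared by sign-flip tests with Benjamini-Hochberg adjustment. Counting CV is 100 divided by the square root of the mean count. Alternatives used CPM, FPKM, edgeR 4.0.16 TMM and DESeq2 1.42.0 scaling of expected counts rounded to whole numbers, other thresholds and pseudocounts, and each replicate left out. The library 2 ratio and the CV were checked on simulated libraries without a loss of long transcripts, and the sign-flip test on known answers. The other procedures were not checked in this way. Python 3.11.15, pandas 2.3.3, numpy 2.4.6 and R 4.3.3 were used.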

Additional observations from a re-analysis of the deposited data

How the results depend on the processing

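No paired analysis was possible because the series has 1 group. The share of *NimB2* in member TPM, 95.1%, was 91.9% in CPM, which does not correct for transcript length, and 94.4% to 95.5% without 1 replicate. The number of detected members, 6, fell to 1 (*NimB2*) at 10 TPM. The orders of low members changed easily. *NimC2* over *drpr* (log2 0.40) became -0.35 in CPM and ranged from -0.084 to 0.95 without 1 replicate, lowest without replicate 2. *drpr* over *NimB5* (-0.02) became 0.0084 with log2(TPM + 1) and 1.87 in CPM, and ranged from -0.61 to 0.55 without 1 replicate, changing sign without replicate 1 or 2. *NimB5* over *NimB3* (0.18) ranged from -0.20 to 0.38, changing sign without replicate 1. *NimB3* over *NimB1* (0.75) became -1.45 in CPM, where short transcripts count less. Relative to genes of similar length, the log2 ratio of library 2 for *drpr* was -1.12 in place of -1.90. Of 63 alternatives for single levels in TPM, 60 moved by less than 1 SD, and 3 rose with mitochondrial and ribosomal RNA genes left out of the total (*NimB2* to 923 TPM). Counts limit *NimB1*, *NimB3*, *NimC1* and the members below 1 TPM most.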
